A study of Mus musculus with 13 samples.

Results

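The genes described are 10 that drive or hold back the passage of a cell through G1 and past the restriction point: the D-type cyclins Ccnd1, Ccnd2 and Ccnd3, their kinases Cdk4 and Cdk6, the E-type cyclins Ccne1 and Ccne2 with their kinase Cdk2, the inhibitor Cdkn1b and the retinoblastoma gene Rb1. They were taken by symbol, and all 10 were found among the 38279 gene symbols of the count table. All 10 also passed the filter on low counts, which kept 20101 genes. They were measured in 10 mouse libraries, 4 from whole mammary glands of wild-type, Cre-negative mice and 6 from mammary tumours of Cre-positive mice. Every mouse, Cre-negative or Cre-positive, was mated at 12 weeks of age, which in the Cre-positive mice sets off excision of Fbxw7. Glands 1 to 3 came from mice of 20 weeks and gland 4 from a mouse of 40 weeks. Tumours 1 to 6 came from mice of 25, 32, 39, 19, 53 and 25 weeks. The labels name neither the promoter that drives Cre nor the excised exons. Effects of the genotype, of being a tumour and of age cannot be told apart with these groups. Whole tissue was used, so a change in the RNA per cell and a change in the number of cells of a type cannot be told apart either.

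D-type cyclins are made in response to growth signals and bind Cdk4 or Cdk6. The active kinases phosphorylate the Rb protein, which releases E2F transcription factors and with them the genes of DNA synthesis, the E-type cyclins among them. Cyclin E with Cdk2 phosphorylates Rb further and starts replication, while p27, the product of Cdkn1b, holds these kinases back. Fbxw7 is the subunit of an SCF ubiquitin ligase that recognises phosphorylated cyclin E and marks it for destruction, so the ligase acts on cyclin E protein, which was not measured. In the mammary gland, cyclin D1 is known for its part in the outgrowth of the alveoli in pregnancy.

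Total counts ranged from 13723065 (gland 3) to 48353114 (gland 2). Levels are given as CPM, the counts scaled to a common library size with TMM factors, unless another scale is named. All 10 luminal epithelial markers were detected in every library, with a summed level of 458 to 766 CPM in the glands and 1752 to 4084 CPM in the tumours. As a share of all counts they made up 0.0353% to 0.0872% in the glands, 0.0733% in tumour 1 and 0.252% to 0.449% in the other tumours. In the edgeR test described below 8 of the 10 were higher in tumours, as were 6.89% of all genes. Summed adipocyte markers were at 4168 to 26277 CPM in the glands and 26.3 to 1172 CPM in the tumours. A list of 17 salivary gland markers took 53.6% of all counts in tumour 1 and 19.9% in tumour 6, against at most 0.0528% in the other 8 libraries. Gland 4 stood apart in muscle transcripts, with 7.07% of its counts in 10 skeletal muscle markers, where the other glands had 0.00475% to 1.33%. Fbxw7, the gene targeted, was at 14.3, 17.8, 18.4 and 83.6 CPM in glands 1 to 4, and its tumour values, 33.3, 47.3, 15.1, 27.8, 28.6 and 33.1 CPM for tumours 1 to 6, lay within that range. Gene totals do not show which exons were read, so these values neither bear out nor go against the genotype labels.

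Of the 10 genes, Ccnd1, Cdk4 and Cdk6 rose in tumours, Ccnd2 fell, and 6 did not pass the test (edgeR's quasi-likelihood F test, threshold 0.05 on p adjusted by Benjamini-Hochberg over all genes). In the same test 15.1% of all genes passed, 6.89% as higher and 8.19% as lower in tumours. The median log2 fold change of the 10 genes was 1.13, with a range of -2.21 to 3.65, beside a median of 0.17 over all tested genes. In Ccnd1, Cdk4 and Cdk6 every tumour lay above every gland, as it did for 6.54% of all genes, and in none of the 10 did every tumour lie below every gland, as it did for 7.5%. Ccnd1 alone was called in all 10 fits that each left out 1 library. The number of genes called among the 10 fell to 1 without gland 1, 2 or 3 and with age as a covariate, and to 2 without gland 4 and with no filter. The share of all genes called fell as well, to 4.99%, 7.18%, 8.46% and 11.4% without gland 1, 2, 3 and 4 respectively. It was 9.45% with age as a covariate and 6.46% with no filter.

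**Figure D1:**
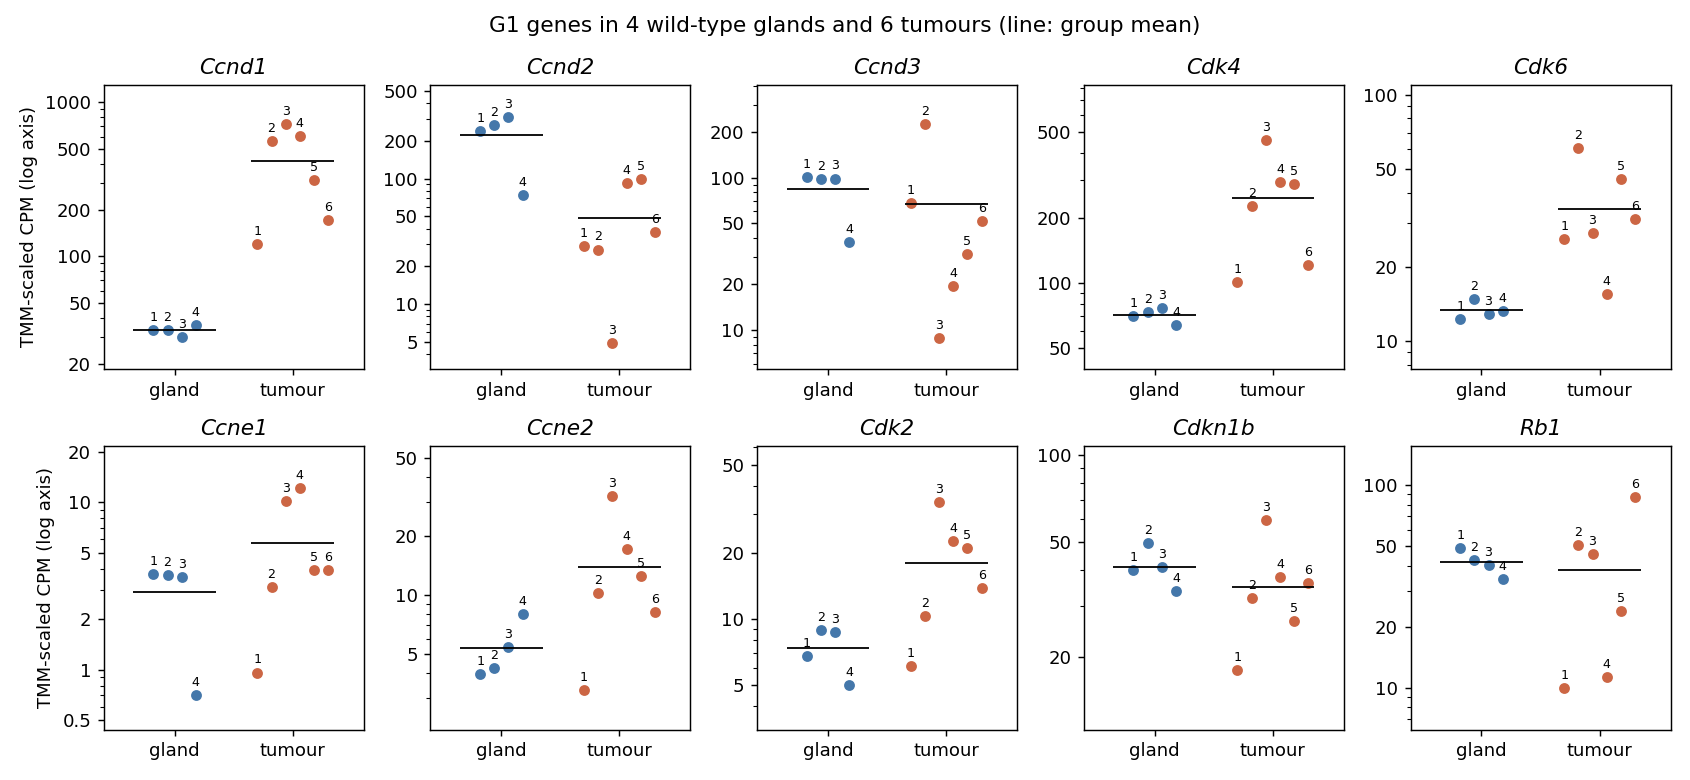
TMM-scaled CPM (log axis) of each of the 10 genes in the 4 glands (blue) and 6 tumours (orange), with library numbers at the points and a line at each group mean. In Ccnd1, Cdk4 and Cdk6 every tumour lies above every gland; Ccnd2 is lower in tumours, with tumours 4 and 5 above gland 4.

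Ccnd1 encodes cyclin D1, the D-type cyclin most tied to the mammary epithelium. Its level was 33.4, 33.3, 29.7 and 36.1 CPM in glands 1 to 4 and 121, 563, 722, 609, 314 and 173 CPM in tumours 1 to 6. The glands lay within a narrow band and each tumour lay well above it, tumours 1 and 6, those with salivary transcripts, being the lowest. The log2 fold change was 3.65 ± 0.57 (SE, n = 4 and 6, adjusted p = 0.00457, edgeR). It was 4.04 without tumours 1 and 6 (adjusted p = 0.000798) and 3.43 to 3.83 over the fits that left out 1 library. Summed luminal markers in CPM, given above, were higher in the same tumours, although as a share of counts tumour 1 lay within the gland range. The part of epithelial content in the rise of Ccnd1 was not tested.

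Ccnd2 encodes cyclin D2, which serves the same kinases. It was at 241, 269, 309 and 74.2 CPM in glands 1 to 4 and at 29.2, 27.3, 4.90, 92.2, 98.98 and 37.8 CPM in tumours 1 to 6. Tumours 1, 2, 3 and 6 lay below every gland, while tumours 4 and 5 lay between gland 4 and the other glands. Ccnd2 fell by a log2 fold change of -2.21 ± 0.68 (SE, n = 4 and 6, adjusted p = 0.0491, edgeR). It did not pass in 7 of the 10 fits without 1 library, those lacking gland 1, 2 or 3 or tumour 1, 2, 4 or 6 (largest adjusted p 0.113), although the value stayed between -2.54 and -1.96. It did not pass either without tumours 1 and 6 (-2.01, adjusted p = 0.112) or with upper-quartile scaling (adjusted p = 0.0667). Summed adipocyte markers were at 26277, 16356, 18588 and 4168 CPM in glands 1 to 4. Gland 4 had the least Ccnd2 and the least adipocyte signal of the glands. Gland 1 had the most adipocyte signal and less Ccnd2 than glands 2 and 3. Summed T and NK cell markers were at 19.1, 586, 465 and 2.23 CPM in glands 1 to 4. Gland 4 was also the lowest gland for summed fibroblast (3553 CPM), macrophage (356 CPM), B cell and basal markers. It was not the lowest for luminal, endothelial or skeletal muscle markers. The part of these cell types in the fall of Ccnd2 was not tested.

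Ccnd3, the cyclin D3 gene, did not pass. It was at 100.4, 98.3, 98.7 and 38.0 CPM in glands 1 to 4 and at 67.6, 226, 8.85, 19.3, 31.6 and 51.8 CPM in tumours 1 to 6. Tumour 2 lay above every gland and tumours 3, 4 and 5 below every gland, so the tumours disagreed among themselves by more than the groups differed. The log2 difference was -0.31 ± 0.74 (SE, n = 4 and 6, adjusted p = 0.785, edgeR), its sign turned, to 0.06, with age as a covariate, and it was -1.21 without tumour 2 (adjusted p = 0.164) and -0.63 without gland 4 (adjusted p = 0.594).

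Shares of the D-type cyclin counts within a library do not depend on the scaling between libraries. Ccnd1 made up 8.90%, 8.33%, 6.79% and 24.3% of the counts of the D-type cyclins in the 4 glands, taken in order, and 55.5%, 69.0%, 98.1%, 84.5%, 70.6% and 65.8% in tumours 1 to 6. Ccnd2 made up 64.3%, 67.1%, 70.7% and 50.04% in the glands and 13.4%, 3.35%, 0.666%, 12.8%, 22.3% and 14.4% in the tumours. The leading D-type transcript by count was thus Ccnd2 in all 4 glands and Ccnd1 in all 6 tumours. The widest 95% Wilson interval for the Ccnd1 share was that of gland 4, 22.6% to 26.1%, and such intervals cover counting error only.

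The mean Ccnd1 share was 12.1% ± 8.20 (SD, n = 4) in glands and 73.9% ± 15.1 (SD, n = 6) in tumours, a difference of 61.8 percentage points (two-sided exact permutation test, p = 0.00476, adjusted p = 0.00952 over 4 shares tested). The mean Ccnd2 share was 63.0% ± 9.04 and 11.2% ± 7.91 in the same order, a difference of -51.9 percentage points (two-sided exact permutation test, p = 0.00476, adjusted p = 0.00952). Both shares have the same denominator, so more Ccnd1 counts alone would lower the Ccnd2 share. The tests of these shares are therefore not separate results, and the Ccnd2 share says little of the level of Ccnd2 itself. The smallest p that 210 splits of 4 against 6 libraries allow is 0.00476. Without tumours 1 and 6 the differences were 68.5 and -53.3 percentage points, with an adjusted p of 0.0571 for each by the exact permutation test, and 4 against 4 libraries cannot go below an unadjusted p of 0.0286. The Ccnd3 share was 22.5% to 26.8% in glands and spread from 1.204% (tumour 3) to 31.1% (tumour 1) in tumours, and it was not tested.

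**Figure D2:**
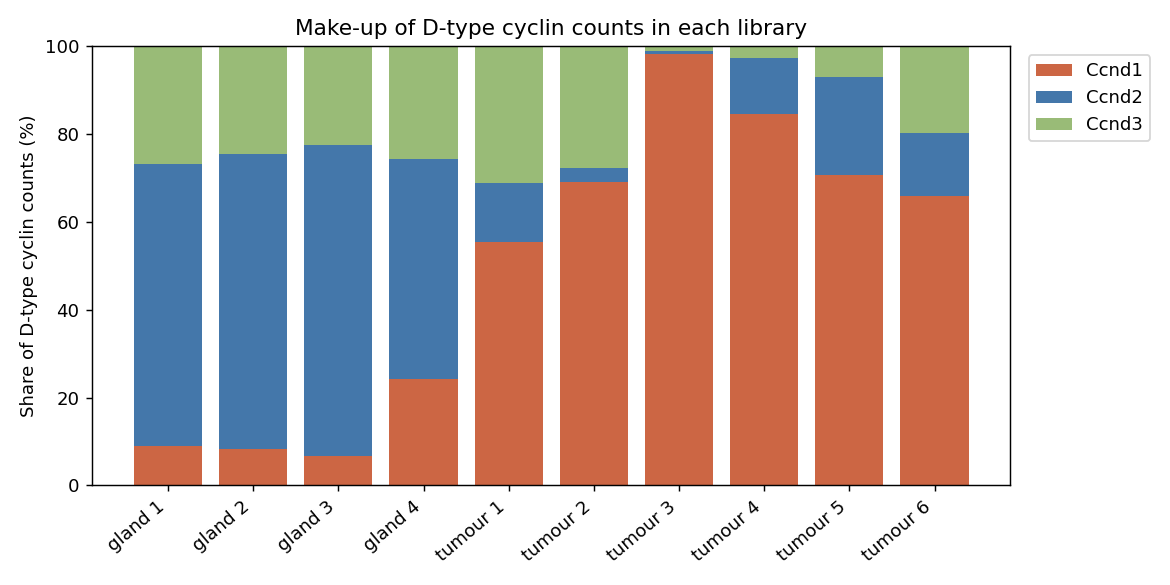
Stacked bars give the share (%) of Ccnd1, Ccnd2 and Ccnd3 in the D-type cyclin counts of each library, 4 glands at the left and 6 tumours at the right. Ccnd2 is the largest part of every gland bar and Ccnd1 the largest part of every tumour bar, from 55.5% in tumour 1 to 98.1% in tumour 3.

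The summed level of the D-type cyclins was 375, 400.2, 438 and 148 CPM in glands 1 to 4 and 217, 816, 735, 720.5, 444 and 262 CPM in tumours 1 to 6. Tumours 1 and 6 lay within the range of the glands and the other 4 above it. The summed E-type cyclins were at 7.68, 7.90, 8.97 and 8.71 CPM in the same glands and 4.25, 13.4, 42.3, 29.3, 16.5 and 12.1 CPM in the same tumours, tumour 1 alone lying below the glands. The make-up of the D-type cyclins therefore differed in all 6 tumours, while their summed level was above every gland in 4.

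Cdk4 encodes the main catalytic partner of the D-type cyclins. It was at 70.0, 73.5, 76.7 and 64.0 CPM in glands 1 to 4 and at 101, 228, 459, 295, 287 and 121 CPM in tumours 1 to 6. Every tumour lay above every gland, tumour 3 the highest and tumours 1 and 6 the lowest. Cdk4 rose by 1.81 ± 0.43 on the log2 scale (SE, n = 4 and 6, adjusted p = 0.0216, edgeR). It did not pass when a single gland, whichever of the 4, was left out (largest adjusted p 0.0700) or with age as a covariate (adjusted p = 0.0511). Over the fits that left out 1 library the log2 fold change stayed between 1.55 and 1.95. Without tumours 1 and 6 the rise was 2.14 (adjusted p = 0.00282).

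Cdk6, the second kinase of the D-type cyclins, was at 12.3, 14.8, 12.9 and 13.3 CPM in glands 1 to 4 and at 26.0, 60.8, 27.4, 15.5, 45.3 and 31.4 CPM in tumours 1 to 6. The order of the tumours differed from that for Cdk4: tumour 2 was the highest and tumour 4, just above gland 2, the lowest. Cdk6 rose by 1.37 ± 0.37 on the log2 scale (SE, n = 4 and 6, adjusted p = 0.0312, edgeR). It did not pass when a single gland or tumour 5 was left out (largest adjusted p 0.0957), with no filter (adjusted p = 0.0602), limma-voom (adjusted p = 0.0537), age as a covariate (adjusted p = 0.0782), or without tumours 1 and 6 and gland 4 together (adjusted p = 0.0713). Over the fits that left out 1 library the log2 fold change stayed between 1.14 and 1.53. Cdk4 made up 84.2% ± 1.36 (SD, n = 4) of the counts of both kinases in glands and 85.6% ± 7.53 (SD, n = 6) in tumours, a difference of 1.46 percentage points (two-sided exact permutation test, p = 0.695, adjusted p = 0.695). The mean hid a wider spread in tumours, from 79.0% in tumour 2 to 95.0% in tumour 4, against 82.8% to 85.6% in glands.

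Promoter windows from RefSeq (build GRCm38.p6, matched by symbol, 250 bases before to 50 after a transcription start) were at hand for 6 of the 10 genes, Cdk4, Cdk6, Cdk2, Ccne1, Cdkn1b and Ccnd3. The windows of Cdk4 (chr10:127063285-127063584, plus strand) and Cdk6 (chr5:3343643-3343942, plus strand) are shown because both kinases rose, and that of Cdk2 (chr10:128705002-128705301, minus strand) because it holds the only E2F motif found. Capitals mark CACGTG, the E-box read by Myc with Max and by other factors, in Cdk4 and Cdk6, and an E2F motif in Cdk2. Sequences run 5′ to 3′ along the gene.
Cdk4: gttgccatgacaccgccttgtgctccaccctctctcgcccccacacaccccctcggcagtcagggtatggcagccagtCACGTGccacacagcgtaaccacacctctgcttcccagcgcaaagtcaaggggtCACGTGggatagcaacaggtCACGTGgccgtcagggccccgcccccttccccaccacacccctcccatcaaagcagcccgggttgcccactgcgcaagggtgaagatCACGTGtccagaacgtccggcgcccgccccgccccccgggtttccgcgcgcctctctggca
Cdk6: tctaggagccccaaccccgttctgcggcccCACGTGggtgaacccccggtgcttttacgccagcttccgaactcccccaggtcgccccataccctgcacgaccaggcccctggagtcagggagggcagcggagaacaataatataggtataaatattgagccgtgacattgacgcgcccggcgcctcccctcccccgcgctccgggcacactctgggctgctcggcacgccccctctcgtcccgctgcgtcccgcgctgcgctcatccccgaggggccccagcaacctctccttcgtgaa
Cdk2: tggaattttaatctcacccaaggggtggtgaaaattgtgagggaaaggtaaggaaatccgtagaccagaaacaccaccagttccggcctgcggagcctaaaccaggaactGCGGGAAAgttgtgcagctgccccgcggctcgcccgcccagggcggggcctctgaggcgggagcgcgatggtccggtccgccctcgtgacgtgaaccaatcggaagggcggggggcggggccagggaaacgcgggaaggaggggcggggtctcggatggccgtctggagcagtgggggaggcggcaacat

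The Cdk4 window holds 4 E-boxes, which begin 172, 118, 98 and 11 bases before the start, and the Cdk6 window holds 1, at 220 bases before it. Of 32851 RefSeq promoter windows of this length, 7.15% hold at least 1 CACGTG and 8 windows (0.0244%) hold 4 or more. E2F motifs were searched as TTTCCCGC, TTTGGCGC, TTTCGCGC and TTTGCCGC on both strands, and no E2F match overlapped an E-box in these windows. The Cdk2 window holds 1, printed as GCGGGAAA, the reverse complement of TTTCCCGC, which begins 140 bases before the start, and 2.26% of all windows hold at least 1. The windows of Ccne1, Cdkn1b and Ccnd3 hold none of these letters. A match describes the sequence, and binding was not measured.

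Ccne1, which encodes cyclin E1, an Fbxw7 substrate, did not pass. It was at 3.74, 3.67, 3.56 and 0.699 CPM in glands 1 to 4 and at 0.959, 3.13, 10.2, 12.1, 3.93 and 3.93 CPM in tumours 1 to 6. Tumours 3 and 4 stood above the rest, tumours 5 and 6 lay just above glands 1 to 3, and tumours 1 and 2 overlapped the glands. These levels rest on few counts, 11 in gland 4 and 14 in tumour 1, against 697 in tumour 4. The log2 difference was 0.96 ± 0.70 (SE, n = 4 and 6, adjusted p = 0.345, edgeR), and it was 0.60 without gland 4 and 1.30 without tumours 1 and 6.

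Ccne2, the cyclin E2 gene, was at 3.94, 4.23, 5.40 and 8.01 CPM in glands 1 to 4 and at 3.29, 10.3, 32.1, 17.2, 12.5 and 8.20 CPM in tumours 1 to 6. Tumours 2 to 6 lay above every gland and tumour 1 below every gland. The log2 difference was 1.37 ± 0.55 (SE, n = 4 and 6, adjusted p = 0.112, edgeR). It passed without tumour 1 (1.56, adjusted p = 0.0406) and without tumours 1 and 6 (1.73, adjusted p = 0.0234).

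Gland 4 went opposite ways in the E-type cyclins, the lowest gland for Ccne1 and the highest for Ccne2. Ccne1 made up 48.7%, 46.4%, 39.8% and 8.03% of the E-type counts in the 4 glands, taken in order, and 22.6%, 23.4%, 24.1%, 41.3%, 23.8% and 32.4% in tumours 1 to 6. The means were 35.7% ± 18.9 (SD, n = 4) and 27.9% ± 7.47 (SD, n = 6), a difference of -7.81 percentage points (two-sided exact permutation test, p = 0.4, adjusted p = 0.533). Without gland 4 the difference was -17.0 percentage points and passed (exact permutation test, adjusted p = 0.0317). The 95% Wilson interval, which covers counting error only, was 4.54% to 13.8% in gland 4 and 32.5% to 47.5% in gland 3.

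Cdk2, the kinase bound by cyclin E, was at 6.76, 8.85, 8.74 and 5.02 CPM in glands 1 to 4 and at 6.10, 10.3, 33.9, 22.6, 21.0 and 13.8 CPM in tumours 1 to 6. Tumours 2 to 6 lay above every gland and tumour 1 lay among them. The log2 difference was 1.29 ± 0.46 (SE, n = 4 and 6, adjusted p = 0.0787, edgeR). It passed without tumour 1 (1.45, adjusted p = 0.0321), without tumours 1 and 6 (1.56, adjusted p = 0.0251; 1.29 and 0.0523 without gland 4 as well), with upper-quartile scaling (1.41, adjusted p = 0.0475) and with DESeq2 (1.29, adjusted p = 0.0356). Tumour 3 was the highest of the tumours for Cdk2, Ccne2, Cdk4 and Ccnd1 alike, and the lowest of all libraries for Ccnd2 and Ccnd3.

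Cdkn1b, which encodes p27, was at 39.9, 49.7, 41.0 and 33.8 CPM in glands 1 to 4 and at 18.02, 32.1, 59.7, 37.8, 26.6 and 36.1 CPM in tumours 1 to 6. Tumour 3 lay above every gland, tumours 1, 2 and 5 below every gland, and tumours 4 and 6 among them. The log2 difference was -0.23 ± 0.31 (SE, n = 4 and 6, adjusted p = 0.623, edgeR).

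Rb1, whose protein is the target of these kinases, was at 48.9, 42.6, 40.1 and 34.2 CPM in glands 1 to 4 and at 9.94, 50.6, 45.9, 11.3, 23.9 and 86.8 CPM in tumours 1 to 6. The glands lay close together, while the tumours lay on both sides, tumours 1, 4 and 5 below every gland and tumours 2 and 6 above every gland. The log2 difference was -0.12 ± 0.55 (SE, n = 4 and 6, adjusted p = 0.890, edgeR), and its sign turned without tumour 1 (0.06) or tumour 4 (0.08).

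To set levels of different genes side by side, CPM was divided by the length of the longest protein-coding transcript in GENCODE M21. Per kilobase, Ccnd3 (39.7 ± 14.5, SD, n = 4), Ccnd2 (35.3 ± 16.3) and Cdk4 (34.6 ± 2.65) led in the glands, and neither neighbouring pair among them differed beyond the spread of its difference between libraries. Cdkn1b (9.04 ± 1.44), Rb1 (8.90 ± 1.31) and Ccnd1 (8.86 ± 0.69) followed as a second group, and each gland had less of every one of these than of Cdk4. Cdk2 (3.05 ± 0.76) lay below Ccnd1 beyond that spread, and Cdk2, Ccne2, Ccne1 and Cdk6, the last at 1.16 ± 0.093, could not be ordered among their neighbours. The low place of Cdk6 depends on its longest coding transcript of 11525 bases, where the median is 697 bases.

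In the tumours Cdk4 (121 ± 63.9 CPM per kilobase, SD, n = 6) and Ccnd1 (111 ± 66.5) led, with no difference between them beyond the spread. Ccnd1 was above Ccnd3 (32.0 ± 38.1) in 6 of 6 tumours, and Cdk2 (7.47 ± 4.17) was above Ccne2 (4.64 ± 3.34) in 6 of 6. The other neighbours, Rb1 (8.17 ± 6.30), Cdkn1b (7.70 ± 3.09), Ccnd2 (7.64 ± 6.03), Cdk6 (2.99 ± 1.40) and Ccne1 (2.85 ± 2.19), did not differ beyond their spread from those next to them. Which transcripts of each gene were used was not measured, and the order moves with the length taken. With the median in place of the longest coding transcript, Ccnd2 led in the glands at 225 ± 104 CPM per kilobase (SD, n = 4), and Ccnd1 led the D-type cyclins in tumours 3 and 4 but not in the other 4. Ccnd3 was above Ccnd1 in tumour 1 (76.0 against 32.2), tumour 2 (254 against 150.5) and tumour 6 (58.3 against 46.2), and Ccnd2 was above it in tumour 5 (99.5 against 83.9). On either length Ccnd1 was the lowest D-type cyclin in every gland. With the median length Cdk4 was above Ccnd1 in every tumour. Its tumour mean was 233 ± 123 CPM per kilobase against 111 ± 66.5 for Ccnd1 (SD, n = 6). Cdk6 moved too, to 19.1 ± 1.53 in the glands (SD, n = 4) and 49.4 ± 23.1 in the tumours (SD, n = 6). Its gland mean then lay above those of Cdkn1b (17.2 ± 2.74), Rb1 (8.90 ± 1.31) and Ccnd1 (8.86 ± 0.69).

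**Figure D3:**
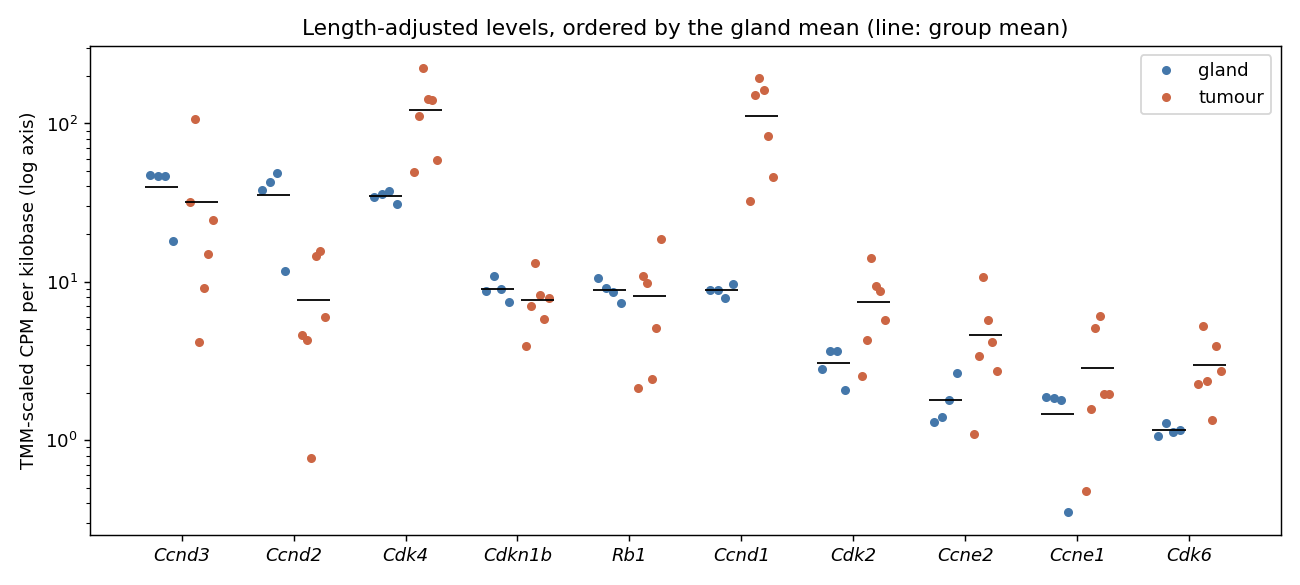
TMM-scaled CPM per kilobase of the longest coding transcript (log axis) for the 10 genes, ordered by the gland mean, with points for the 4 glands (blue) and 6 tumours (orange) and a line at each group mean. On this length Ccnd1 stands sixth among the glands at 8.86 and is near Cdk4 in the tumours, at 111 against 121. With the median coding length, not shown, the tumour mean of Cdk4 is 233 and that of Ccnd1 111.

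Of 6 other inhibitors of G1 kinases, Cdkn2a rose, Cdkn2c fell and 4 did not pass (median log2 fold change -0.41, beside 0.17 over all genes). Over all genes 6.89% rose and 8.19% fell. Cdkn2c encodes p18, an inhibitor that binds Cdk4 and Cdk6. It was at 246, 154, 160.5 and 25.9 CPM in glands 1 to 4 and at 10.8, 21.5, 14.02, 7.85, 7.70 and 16.7 CPM in tumours 1 to 6.

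Every tumour lay below every gland, gland 4 being the lowest gland. Cdkn2c fell by a log2 fold change of -3.49 ± 0.53 (SE, n = 4 and 6, adjusted p = 0.00432, edgeR), and it passed in all 10 fits without 1 library (-3.90 to -3.13) and in all 10 other alternatives. Adipocyte markers fell in the same libraries and were, like Cdkn2c, lowest among the glands in gland 4. Summed fibroblast and macrophage markers were lowest among the glands in gland 4 too. The part of these cell types in the fall of Cdkn2c was not tested. Cdkn2a, which encodes p16 and p19ARF, was at 0.371, 0.734, 0.613 and 0.636 CPM in glands 1 to 4 and at 1.44, 7.61, 5.14, 64.1, 54.9 and 1.45 CPM in tumours 1 to 6. Every tumour lay above every gland, and tumours 4 and 5 lay far above the other tumours. It changed by 5.25 ± 1.29 (SE, n = 4 and 6, adjusted p = 0.0234, edgeR), which did not pass when a single gland was left out (largest adjusted p 0.0772) or with limma-voom (4.14, adjusted p = 0.0946). Cdkn1a, the p21 gene, differed by 1.10 ± 0.94 (adjusted p = 0.419). Gland 4 held 74.2 CPM of Cdkn1a against 8.46 to 9.93 CPM in the other glands, and without it the difference was 2.52 (adjusted p = 0.101).

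Among 12 genes of the Rb family and of E2F and Dp factors, 1 rose, 2 fell and 9 did not pass (median log2 fold change 0.88). Over all genes 15.1% passed. Rbl2, which encodes the Rb relative p130 of resting cells, was at 38.0, 44.1, 31.4 and 29.4 CPM in glands 1 to 4 and at 23.3, 8.22, 10.96, 7.09, 13.8 and 16.9 CPM in tumours 1 to 6. No tumour reached a gland. Rbl2 fell by a log2 fold change of -1.42 ± 0.34 (SE, n = 4 and 6, adjusted p = 0.0225, edgeR), and did not pass without gland 1 or 2 (largest adjusted p 0.0660) and with age as a covariate (adjusted p = 0.0514). E2f6, a repressor of the E2F family, changed by -1.97 ± 0.48 (adjusted p = 0.0226) but did not pass without gland 1 (-2.05, adjusted p = 0.0541) or gland 4 (-1.26, adjusted p = 0.0572). E2f7, another repressor and itself an E2F target, changed by 1.61 ± 0.41 (adjusted p = 0.0261), and did not pass when a single gland or tumour 4 was left out (largest adjusted p 0.0728) or with no filter (adjusted p = 0.0612). No E2f6 or E2f7 value in a tumour overlapped the glands. Without tumours 1 and 6, 5 genes of this list were higher and 2 lower, and 0 were called without gland 1. Of all genes, 21.7% and 4.99% were called in these fits.

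Of 11 genes found for the turnover of cyclins and p27, 2 rose, 2 fell and 7 did not pass (median log2 fold change -0.12, and 0.01 with upper-quartile scaling, which moved the median of all genes by 0.16, and 0.0017 without gland 4). Over all genes 15.1% passed. Skp2, the F-box protein that recognises p27, was at 1.46, 2.93, 1.73 and 1.27 CPM in glands 1 to 4 and at 2.67, 9.96, 36.8, 15.5, 14.6 and 6.16 CPM in tumours 1 to 6. Tumours 2 to 6 lay above every gland and tumour 1 just under gland 2. Skp2 rose by 2.94 ± 0.69 on the log2 scale (SE, n = 4 and 6, adjusted p = 0.0197, edgeR), and did not pass without gland 1, 3 or 4 (largest adjusted p 0.0678). Its cofactor in binding p27, Cks1b, changed by 2.08 ± 0.54 (adjusted p = 0.0288), and did not pass when a single gland or tumour 4 was left out (largest adjusted p 0.0835) or with age as a covariate (adjusted p = 0.0582).

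Fbxo31, the F-box protein of a ligase that acts on cyclin D1, changed by -2.22 ± 0.56 (SE, n = 4 and 6, adjusted p = 0.0251, edgeR), with every tumour, at 3.19 to 23.2 CPM, below every gland, at 25.2 to 77.4 CPM. Fbxo31 did not pass without gland 1 (adjusted p = 0.0745). Usp28, a deubiquitinase known to oppose Fbxw7, changed by -1.57 ± 0.48 (adjusted p = 0.0477). It was called in 2 of the 10 fits without 1 library, those without gland 3 or tumour 3, and was at -0.88 without gland 4 (adjusted p = 0.156) and -1.35 without tumours 1 and 6 (adjusted p = 0.0943). Fbxw7 itself did not pass (log2 difference -0.12 ± 0.51, adjusted p = 0.888), and its sign turned without gland 4 (0.80, adjusted p = 0.135), without tumour 3 (0.03), with upper-quartile scaling (0.01) and with limma-voom (0.33). Without gland 1, 0 genes of this list were called, and without gland 4 only 1, as lower. Of all genes, 4.99% and 11.4% were called in these fits.

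Of 8 genes that activate or restrain these kinases, Cdc25a and Cdc25c rose and 6 did not pass (median log2 fold change 0.69). Over all genes 6.89% rose and 8.19% fell. Cdc25a, the phosphatase that activates Cdk2, was at 5.82 to 8.74 CPM in glands and 11.8 to 31.9 CPM in tumours, with a log2 fold change of 1.15 ± 0.35 (SE, n = 4 and 6, adjusted p = 0.0493, edgeR). Its groups did not overlap, but it did not pass in 9 of the 10 fits without 1 library, all but that without tumour 3 (largest adjusted p 0.144), nor without tumours 1 and 6 (0.73, adjusted p = 0.0996). Cdc25c, which acts at entry into mitosis, changed by 5.06 ± 0.88 (adjusted p = 0.00699) and was called in all 10 such fits. Its size rests on very low gland levels, 0.127 to 0.390 CPM, from 7, 25, 7 and 2 counts in glands 1 to 4.

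Of 20 genes that act at or follow the passage from G1 to S, 9 were higher in tumours, 0 lower and 11 did not pass, and all 20 had positive values, with a median log2 fold change of 2.02 beside 0.17 over all genes (edgeR). Of all genes, edgeR called 6.89% higher and 8.19% lower. DESeq2 called 17 as higher, where it called 13.2% of all genes higher, and limma-voom 7, where it called 5.31% higher, and neither called any of the 20 as lower. The 6 with the smallest p were Tyms, which makes thymidylate (2.50 ± 0.48), Orc1, a replication origin factor (3.33 ± 0.72), Rrm2, a subunit of ribonucleotide reductase (3.03 ± 0.66), Ccna2, the S-phase cyclin A2 (4.11 ± 0.90), Tk1, a thymidine kinase (3.48 ± 0.83), and Dbf4, the regulatory subunit of the Cdc7 kinase (2.28 ± 0.58), with adjusted p from 0.00991 to 0.0269. Tumour 3 was the highest for each of these 6, as for Ccne2 and Cdk2, and tumour 1 the lowest of the tumours. The count of calls moved with single libraries: 19 genes were called without tumour 1 and also without tumours 1 and 6, 5 without gland 3 or gland 4, 6 without gland 2, tumour 2 or tumour 4, and 1 gene, Tyms, without gland 1. With age as a covariate 5 were called, and 6 with no filter. The share of all genes called moved too, to 17.8% without tumour 1, 21.7% without tumours 1 and 6 and 4.99% without gland 1. It was 7.18%, 8.46% and 11.4% without gland 2, 3 and 4 respectively, 10.3% without tumour 2 and 9.42% without tumour 4. With age as a covariate it was 9.45%, and with no filter 6.46%. The median log2 fold change of the 20 genes stayed between 1.69 (without tumour 3) and 2.32 (without gland 2) over the fits that left out 1 library.

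**Figure D4:**
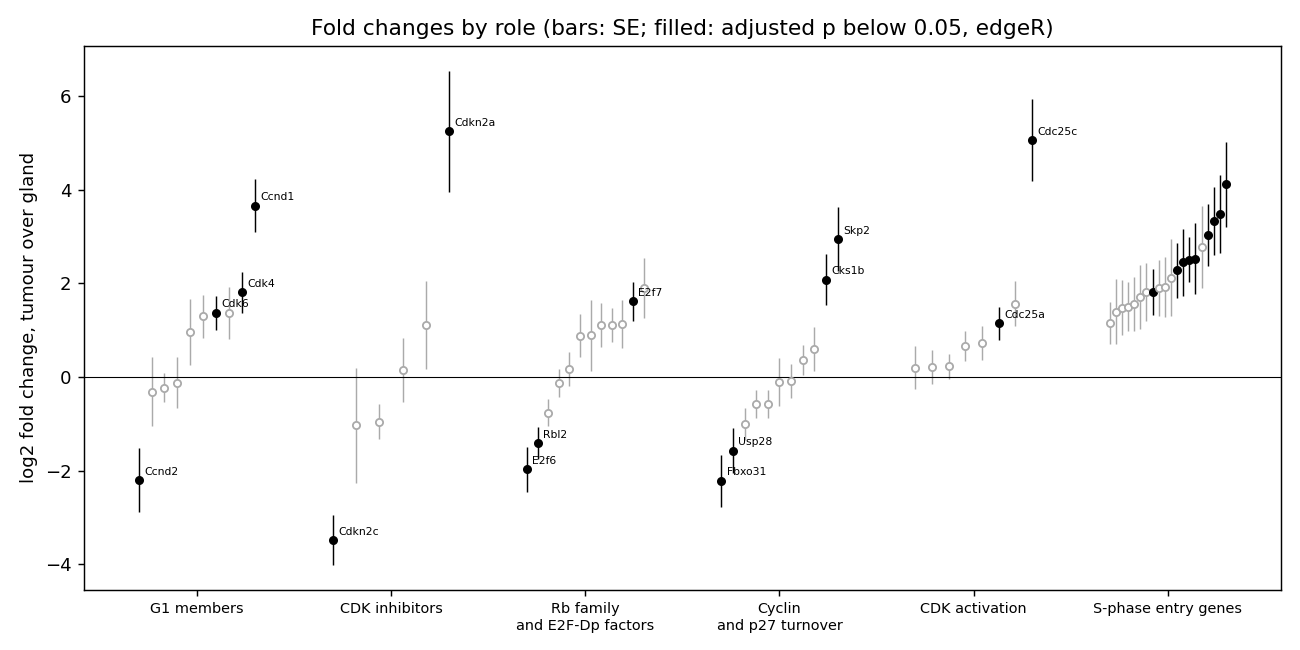
Log2 fold change, tumour over gland, of each gene in the G1 set and in 5 lists of the same pathway, with SE bars and filled points for adjusted p below 0.05 (edgeR, 4 glands and 6 tumours). The 20 S-phase entry genes all lie above 0, while the inhibitors and the turnover genes lie on both sides, from Cdkn2c at -3.49 to Cdkn2a at 5.25.

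Likeness of pattern was measured as the root mean square difference of log2 CPM over the 10 libraries, each gene centred on its own mean, among 13852 other genes. Nearest to Ccnd1 were Eva1a (0.26), Krtcap3 (0.37) and Cxadr (0.42), which rose by 3.67 ± 0.64, 3.21 ± 0.46 and 3.33 ± 0.49 on the log2 scale (SE, n = 4 and 6, adjusted p = 0.00677, 0.00374 and 0.00390, edgeR). Nearest to Ccne1 were Tuba1b, an alpha-tubulin (0.38), Eno1b, an enolase gene (0.38), and Il13ra1, an interleukin receptor chain (0.39), and their log2 differences of 0.98, 0.60 and 0.73 did not pass. All of these neighbours were picked by their values in the same 10 libraries. Their fold changes and tests therefore follow from the choice and are no separate result. Eva1a was at only 0.445 to 0.609 CPM in the glands. Eno1b has a near-identical relative in Eno1, and the sources used here do not say how reads were divided between them.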

How the data were processed

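The authors deposited 1 table of whole-number read counts per gene symbol for 10 libraries, of polyA RNA per the labels. Salmon 1.2.0, DESeq and build mm9 are listed, with no role, per the submitters' processing notes, and the sources used here do not say how gene totals were formed. The 3 epithelium samples of the series (of 13) were not analysed here. Counts were tested with edgeR 4.0.16 (R 4.3.3): filterByExpr defaults, TMM, quasi-likelihood F test, no covariate, Benjamini-Hochberg over 20101 genes, threshold 0.05. Standard errors were taken as the size of the log2 fold change over √F. The biological coefficient of variation was 0.707. In simulated counts of this design (19647 genes tested), the test recovered 1 of 67 genes with a 2-fold change, 5 of 67 at 4-fold and 40 of 63 at 8-fold, and made 1 false call, so a gene that misses the threshold may still differ. The simulation gave every gene the same dispersion and changed far fewer genes than were called in the data. The shares recovered there are therefore not the power of the test in the data. Different ages show more than 1 mouse in each group, but the labels do not say that every library is a separate animal, so p-values speak only of the spread among libraries.

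Alternatives were RLE and upper-quartile scaling, TMM without salivary genes, no filter, at least 10 counts in every library, DESeq2 1.42.0, limma-voom (limma 3.58.1), age as a covariate, and leaving out libraries. Shares were compared by exact permutation over libraries. Named genes were the 10 members, Fbxw7, the called genes of each list (at most 6 by smallest p, or the 2 smallest), and the 3 nearest in pattern to Ccnd1 and to Ccne1. Cdkn1a is named besides, chosen after its values were seen. One gene first listed with the S-phase genes is not reported here, and counts are over the other 20. Members and lists were chosen with earlier results of these data known. Median transcript length was an alternative chosen after seeing the data.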

Additional observations from a re-analysis of the deposited data

Results flagged for a closer look

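Among 76 groups of 4 glands or 6 tumours examined for a library far from the others, over the named genes and the 4 shares, 11 held one. The cut-off flags about 1 in 20 groups of independent, normally distributed values. CPM values need not be normal and the groups share libraries, so the count cannot be set against chance. Gland 4 was the library set apart in 5 of the 11. It was low in Ccnd3, at 38.0 CPM against 98.3 to 100.4 CPM in the other glands, and in Ccne1, at 0.699 CPM against 3.56 to 3.74 CPM. It was high in Fbxw7, at 83.6 CPM against 14.3 to 18.4 CPM, in Usp28, at 45.1 CPM against 8.46 to 14.3 CPM, and in the Ccnd1 share of D-type cyclin counts, at 24.3% against 6.79% to 8.90%. Gland 4 is also the 40-week gland and the one with 7.07% of counts from muscle markers, and the part of either was not tested.

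Tumour 2 stood out in Ccnd3, at 226 CPM against 8.85 to 67.6 CPM in the other tumours. Tumour 3 stood out in 4 genes of division: Cdc25c at 30.7 CPM (others 2.81 to 7.40), Orc1 at 12.6 CPM (1.64 to 5.76), Rrm2 at 99.4 CPM (11.9 to 41.6) and Ccna2 at 235 CPM (7.13 to 71.0). Tumour 1 stood out in Cdc25a, at 31.9 CPM against 11.8 to 18.9 CPM, although it was the lowest tumour in each of the 4 genes in which tumour 3 was highest.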

How the results depend on the processing

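Ccnd1 kept its direction and its call in all 20 alternatives, and Ccne1 and Cdkn1b kept their direction and stayed uncalled in all 20. Of the 20, Ccnd2 lost its call in 12, Cdk6 in 9 and Cdk4 in 5, while Cdk2 gained one in 4 and Ccne2 in 3. Signs turned for Ccnd3 with age as a covariate (0.0598) and for Rb1 without tumour 1 (0.0581) or 4 (0.0783), none of them called, and Rb1 went from -0.581 to 0.0783 without 1 library. The number of the 10 genes called, 4, was 2 when no filter was used, 1 when age was a covariate and 1 to 5 without 1 library. The number of all genes called, 3030, was 5252 with DESeq2, 1899 with age as a covariate, 4640 without tumours 1 and 6 and gland 4, and 1053 to 3521 without 1 library. Of the calls 45.7% were higher, and 57.9% with upper-quartile scaling and 34.7% with limma-voom. Without 1 library the share differences were 57.0 to 65.9 percentage points for Ccnd1, -56.2 to -49.3 for Ccnd2, -17.0 to -3.48 for Ccne1 and -0.417 to 2.79 for Cdk4, the last turning sign without tumour 3 (-0.291) or tumour 4 (-0.417) and in medians (-1.15). Without tumours 1 and 6 the shares of Ccnd1 (68.5) and Ccnd2 (-53.3) missed the threshold (adjusted p = 0.0571 each), both at the smallest unadjusted p that 4 against 4 libraries allow, 0.0286. The cause of the other changes was not tested. No paired analysis was possible because the replicate numbers of glands and tumours are names only and pair no animals. Ccne1 rests on 11 to 697 counts per library.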
